A study of Mus musculus with 36 samples.

Results

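Voltage-gated calcium channels were followed through 10 subunit genes, 8 for pore-forming subunits (Cacna1a, Cacna1b, Cacna1c, Cacna1d, Cacna1e, Cacna1g, Cacna1h and Cacna1i) and 2 for alpha2delta subunits (Cacna2d1 and Cacna2d3), out of 26709 genes in the RNA table. The genes were chosen by name and not by a threshold, and all 10 passed the filter on low values. The cells were prenatal cortical neurons of CD-1 mice, prepared from pooled embryos of embryonic day 15 and kept for 7 days in vitro, in which RNA-seq and ATAC-seq (a count of transposase cuts in open chromatin) were each measured in 18 libraries. Activity was first silenced in every culture: AP-5 at 100 µM blocked NMDA receptors, and TTX at 1 µM blocked sodium channels. Stimulated groups were silenced for 2 h and then received 10 ng/ml BDNF (brain-derived neurotrophic factor, the ligand of the TrkB receptor) or 55 mM KCl, which depolarises the membrane, for 1, 6 or 10 h. The control groups stayed in AP-5 and TTX for 3, 8 or 12 h in all and received no stimulus. Each of the 9 groups had 2 libraries per assay, named A and B below, and the 6 control libraries were used as 1 reference group. The study calls the libraries of a group biological replicates, while tissue of the embryos was pooled before culture. Whether these libraries came from separate litters is not given in the sample labels or the methods. The p-values thus measure the spread between cultures and may not cover that between litters.

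A voltage-gated calcium channel opens when the membrane depolarises and lets calcium into the neuron. The pore-forming subunit sets the class of the channel: the L-type pores (Cacna1c, Cacna1d) link depolarisation to gene transcription, the P/Q-type (Cacna1a), N-type (Cacna1b) and R-type (Cacna1e) pores feed transmitter release at presynaptic terminals, and the T-type pores (Cacna1g, Cacna1h, Cacna1i) open near the resting potential and shape burst firing. The extracellular alpha2delta subunits bring channels to the surface and bind gabapentin in the case of Cacna2d1, and the cytoplasmic beta subunits assist folding and trafficking.

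Depth was 8.51 to 36.7 M reads in the RNA libraries, and the ATAC libraries held 1.24 to 6.24 M reads within peaks. Library B of KCl 6 h stood apart: Gm42418, a long non-coding RNA gene, took 3.26% of its reads against 0.0416 to 0.401% in the other libraries, and 9 of the 10 subunit genes were lower in it than in library A, by up to 1.51-fold. For subunit genes at KCl 6 h, the values without library B are given below. No drift of a subunit gene was detected in the silenced controls: at 6 h or 10 h against 1 h, 0 of 10 passed in limma, with 0 of 10 under an unadjusted p of 0.05, and edgeR and DESeq2 also gave 0. The neuronal markers Rbfox3, Map2, Snap25 and Syt1 were all detected, at a summed level of 30289 to 34485 normalised counts in controls. Astrocyte and oligodendrocyte-lineage markers were present too, each list detected in full. The 4 interneuron markers (Gad1, Gad2, Slc32a1, Lhx6) summed to 5308 to 6789 normalised counts in controls and to 6970 to 10448 in stimulated libraries. They did not move as one: 3 of the 4 passed as higher in each stimulated group, while 1 passed as lower at KCl 6 h and at KCl 10 h. At KCl 6 h without library B, the log2 fold change was -0.23 for Lhx6, against 0.96 for Gad1, 0.50 for Gad2 and 1.21 for Slc32a1. The summed level of the 4 astrocyte markers (Gfap, Aqp4, Slc1a3, Aldh1l1) in controls was 8835 to 11817 normalised counts, against 8663 to 9034 at BDNF 6 h and 7024 to 8300 at KCl 6 h, and all 4 passed as lower at those times, alongside the falls described below. After 10 h it was 8911 to 9082 with BDNF, where 2 of the 4 passed as lower, and 7726 to 8220 with KCl, where all 4 did. The part of this shift in the subunit results was not tested, and in such bulk samples fewer cells of a type and less RNA per cell cannot be told apart. Exons of 3 subunit genes overlap another gene, and strand-specific counting is not given in the sources used here. Overlapping genes were low: Chdh, which shares 589 exon bases with Cacna1d, had 3.61 to 8.78 normalised counts in controls.

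Levels were compared between genes after reads were divided by exon length, as RPKM (reads per kilobase of exon, scaled to the depth of the library). The length was that of the merged exons of all annotated transcripts, from 8720 bp (Cacna2d3) to 25228 bp (Cacna1e). The order below depends on it: in normalised counts Cacna1c (mean 701 in controls) lay above Cacna1i (331). In the 6 controls, the N-type pore Cacna1b (15.98 ± 0.853, SD) and the T-type pore Cacna1h (15.3 ± 1.02) were the highest, and their ranges overlapped. Cacna2d1 followed at 10.3 ± 0.585, Cacna1g at 6.95 ± 0.468 and Cacna1a at 4.87 ± 0.144, each without overlap with its neighbours in this order. Cacna1e (4.14 ± 0.441), Cacna1d (3.88 ± 0.296) and Cacna2d3 (3.46 ± 0.231) formed a middle group in which neighbours overlapped. Cacna1i (2.81 ± 0.179) and the L-type pore Cacna1c (2.77 ± 0.159) were lowest and overlapped each other. After 6 h of KCl, Cacna1d stood at a mean of 0.864 on this scale, below every other subunit gene in the same libraries, with the next lowest, Cacna1i, at 1.51.

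**Figure D1:**
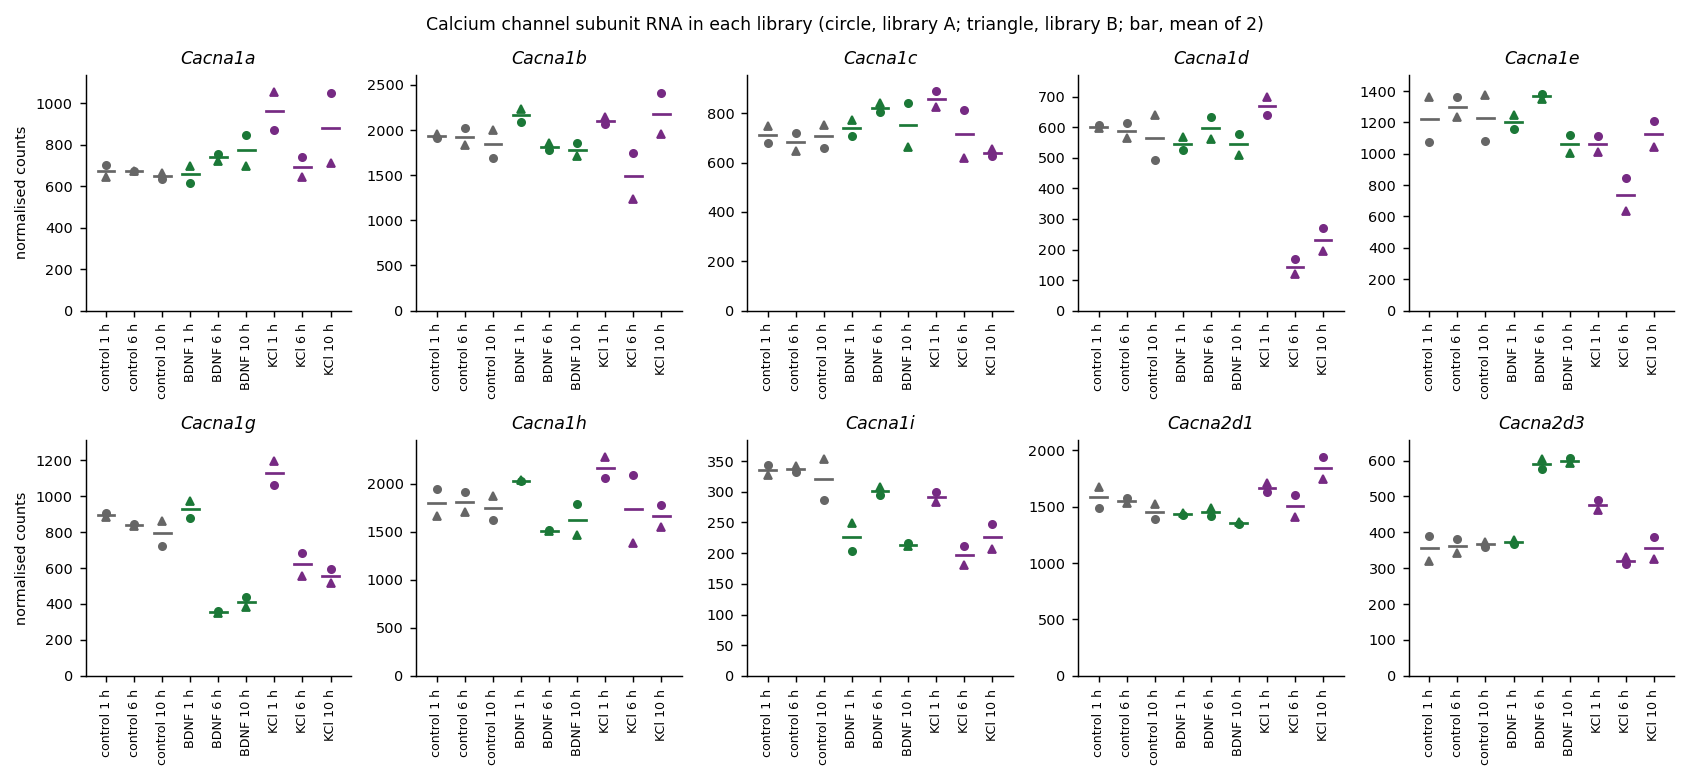
Normalised counts (reads divided by the size factor of the library) of each subunit gene in all 18 RNA libraries, by group; circles are library A, triangles library B and bars the mean of 2. Cacna1d drops to 119 to 168 at KCl 6 h, Cacna1g drops to 350 to 359 at BDNF 6 h, and Cacna2d3 rises to 576 to 606 at BDNF 6 and 10 h.

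Which subunits moved depended on the stimulus and the time. A gene is said to have risen or fallen where limma on log2(normalised count + 1), with Benjamini-Hochberg adjustment over all 16209 genes tested, gave an adjusted p below 0.1. Of 60 tests (10 genes against controls in 6 stimulated groups), 25 passed, 10 as higher and 15 as lower, or 41.7%, against 50.4% over all genes in the same comparisons. Only 4 of the 25 were changes of at least 1 log2 unit, and these belonged to Cacna1d and Cacna1g. Every subunit gene passed at least once, and 3 of them (Cacna1g, Cacna2d1 and Cacna2d3) were higher in some groups and lower in others. Over the 6 groups together, the share of subunit tests that passed was thus not above the background.

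At 1 h of BDNF, 0 subunit genes rose (0 under an unadjusted p of 0.05, and 0 by edgeR and by DESeq2), where 21.3% of all genes did, and 1 fell, where 19.0% did. Of all genes that span at least 100 kb, as 8 of the 10 do, 11.7% rose and 19.7% fell. At 6 h of BDNF, 2 rose and 1 fell, beside 22.1% and 21.1% of all genes. At 10 h, 1 rose and 3 fell, beside 21.1% and 19.5%. KCl gave more changes: at 1 h, 5 rose and 1 fell, beside 26.5% and 28.2% of all genes. In the same libraries the 4 neuronal markers summed to 36364 to 39444, above all controls, and all 4 passed as higher (median log2 fold change 0.34). The summed level of the 4 oligodendrocyte-lineage markers was 4168 to 4638 there against 5608 to 6033 in controls, and 2 of the 4 passed as lower (median -0.39). The part of these shifts in the KCl 1 h rises was not tested. At 6 h of KCl, 0 rose (0 under an unadjusted p of 0.05, and 0 by edgeR and by DESeq2) and 6 fell, beside 33.4% and 33.1%. Without library B of KCl 6 h, 2 rose and 4 fell, beside 29.6% and 29.1%. At 10 h of KCl, 2 rose and 3 fell, beside 29.0% and 28.2%. The median log2 fold change of the 10 genes was 0.24 at KCl 1 h, -0.27 at KCl 6 h and -0.12 at KCl 10 h, where that of all genes tested was 0.00 to 0.01.

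**Figure D2:**
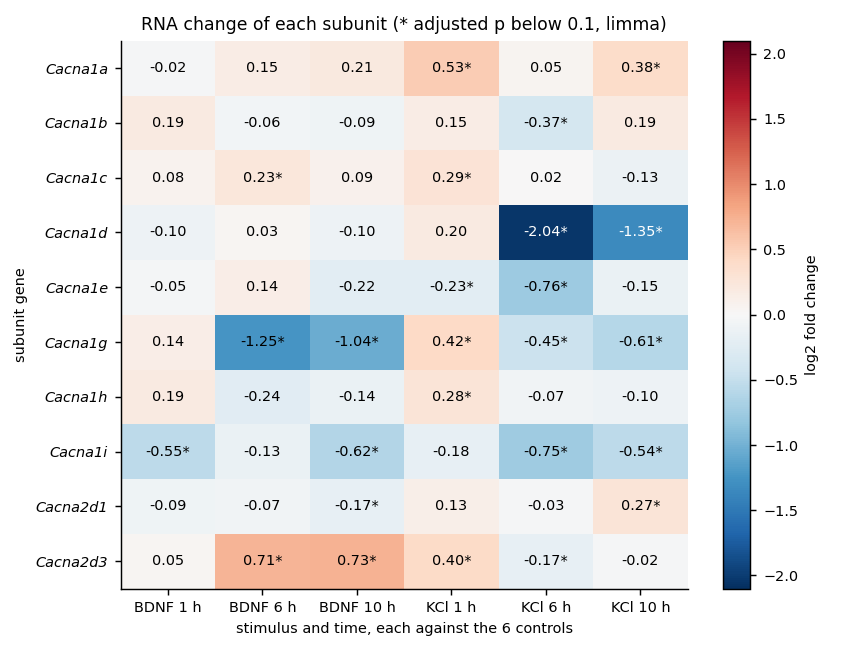
Log2 fold change of each subunit gene (rows) in each stimulated group against the 6 controls (columns), with the value printed in each cell and a star where the adjusted p was below 0.1. The deepest falls are Cacna1d at KCl 6 h (-2.04) and 10 h (-1.35) and Cacna1g at BDNF 6 h (-1.25) and 10 h (-1.04).

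The L-type pore Cacna1d gave the largest change of the family. Its normalised counts in controls had a lowest value of 494, a median of 603 and a highest of 640. The 2 libraries held 640 and 700 at KCl 1 h, 168 and 119 at KCl 6 h, and 271 and 194 at KCl 10 h. With BDNF they were 525 and 567 after 1 h, 635 and 563 after 6 h, and 579 and 510 after 10 h. Late KCl libraries thus lay below every other library, while each BDNF group overlapped the controls. The fall at KCl 6 h was 4.104-fold (log2 fold change -2.04, SE 0.13, adjusted p = 6.24e-11) and that at KCl 10 h was 2.54-fold (-1.35, SE 0.13, adjusted p = 4.64e-08). Without library B, the log2 fold change at KCl 6 h was -1.79 (adjusted p = 2.40e-09). None of the BDNF tests passed, with log2 fold changes of -0.10, 0.03 and -0.10. The partial return from 6 to 10 h of KCl also passed (0.69, SE 0.16, adjusted p = 0.00552), although not without library A of KCl 10 h.

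Cacna1c, the other L-type pore and the main one of brain and heart, passed against controls in 2 of the 6 groups. Controls ran from 647 through a median of 700 to 753 normalised counts, against 889 and 825 at KCl 1 h and 812 and 617 at KCl 6 h. BDNF gave 707 and 772 after 1 h, 804 and 843 after 6 h, and 842 and 661 after 10 h. The rises at KCl 1 h (log2 fold change 0.29, SE 0.10, adjusted p = 0.0164) and BDNF 6 h (0.23, SE 0.10, adjusted p = 0.0648) passed, and both were lost when a single library was left out, library A of KCl 1 h in the first case and either BDNF 6 h library in the second. At KCl 6 h, where Cacna1d fell by 2.04 on the log2 scale, the log2 fold change of Cacna1c was 0.02 (95% interval -0.18 to 0.22). That value turned on library B, without which Cacna1c passed as higher (0.21, adjusted p = 0.0994).

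Among the presynaptic pores, the P/Q-type Cacna1a had 636 to 703 normalised counts in controls (median 667), 872 and 1052 at KCl 1 h, 738 and 642 at KCl 6 h, and 1049 and 712 at KCl 10 h. At KCl 6 h it did not pass with library B or without it (0.15, adjusted p = 0.412, without). It rose at KCl 1 h (log2 fold change 0.53, SE 0.11, adjusted p = 5.68e-04), with both libraries above all controls. The rise at KCl 10 h (0.38, adjusted p = 0.00789) rested on library A, since without it the log2 fold change was 0.10. Its BDNF libraries held 614 to 847 and none of the 3 tests passed.

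Cacna1b, the N-type pore, held 1689 to 2018 normalised counts in controls (median 1934) and 1743 and 1236 at KCl 6 h. The fall there (log2 fold change -0.37, SE 0.10, adjusted p = 0.0032) rested on library B, without which it was -0.12 (adjusted p = 0.30). No other group passed against controls for this gene, in which the other stimulated libraries held 1715 to 2408. Cacna1e, the R-type pore, fell at KCl 6 h to 845 and 636 from 1076 to 1373 in controls (median 1299), below every other library of the series. That fall (-0.76, SE 0.11, adjusted p = 5.49e-06) stood without library B (-0.56, adjusted p = 8.78e-04). A fall of 0.23 on the log2 scale at KCl 1 h (adjusted p = 0.0895) was lost without either KCl 1 h library. By 10 h of KCl, at 1208 and 1042, Cacna1e no longer differed from controls beyond their spread (-0.15, 95% interval -0.37 to 0.08).

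The T-type pore Cacna1g was the member that responded most to BDNF. Controls had 725 to 908 normalised counts with a median of 854. The BDNF libraries held 876 and 975 after 1 h, 359 and 350 after 6 h, and 437 and 383 after 10 h, so the late ones lay below all controls and all KCl libraries. KCl gave 1063 and 1196 after 1 h, 682 and 558 after 6 h, and 593 and 514 after 10 h, first above and then below the controls. The falls with BDNF were 2.37-fold at 6 h (log2 fold change -1.25, SE 0.09, adjusted p = 8.58e-10) and 2.05-fold at 10 h (-1.04, SE 0.09, adjusted p = 2.36e-08). With KCl, Cacna1g rose at 1 h (0.42, adjusted p = 6.60e-04) and fell at 6 h (-0.45, adjusted p = 2.71e-04) and 10 h (-0.61, adjusted p = 1.37e-05). Each of these 5 calls was kept under every alternative fit and with any library left out. The KCl 6 h value was -0.30 (adjusted p = 0.0259) without library B.

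Cacna1i, another T-type pore, fell with both stimuli. Its normalised counts were 286 to 354 in controls (median 337), 204 and 249 after BDNF for 1 h, 295 and 307 for 6 h, and 217 and 211 for 10 h. With KCl they were 300 and 283 after 1 h, 212 and 181 after 6 h, and 247 and 207 after 10 h. It passed as lower at BDNF 1 h (log2 fold change -0.55, adjusted p = 2.21e-04), BDNF 10 h (-0.62, adjusted p = 8.54e-05), KCl 6 h (-0.75, adjusted p = 1.87e-06) and KCl 10 h (-0.54, adjusted p = 1.49e-04). Without library B, the KCl 6 h value was -0.63 (adjusted p = 2.63e-04). BDNF 6 h did not pass (-0.13, adjusted p = 0.33), and its libraries overlapped the controls.

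Cacna1h, the most abundant T-type pore per length, had 1625 to 1943 normalised counts in controls (median 1789). It held 2057 and 2273 at KCl 1 h, 2091 and 1381 at KCl 6 h, 1783 and 1547 at KCl 10 h, and 1463 to 2034 with BDNF. Only KCl 1 h passed (log2 fold change 0.28, SE 0.12, adjusted p = 0.0596), and that call was lost without either KCl 1 h library. At KCl 6 h its direction turned on library B: -0.07 with it and 0.23 without it (adjusted p = 0.0725).

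The alpha2delta genes went different ways. Cacna2d3 had 320 to 390 normalised counts in controls (median 366), 366 and 378 after BDNF for 1 h, 576 and 605 for 6 h, and 606 and 593 for 10 h. KCl gave 490 and 463 after 1 h, 312 and 331 after 6 h, and 387 and 326 after 10 h. The late BDNF libraries were the 4 highest of the series. Cacna2d3 rose 1.64-fold at BDNF 6 h (adjusted p = 9.73e-07, log2 fold change 0.71, SE 0.08), 1.66-fold at BDNF 10 h (0.73, SE 0.08, adjusted p = 1.04e-06) and 1.32-fold at KCl 1 h (0.40, SE 0.08, adjusted p = 4.75e-04). Its fall at KCl 6 h (-0.17, adjusted p = 0.0968) was at the threshold and was lost without either KCl 6 h library (-0.21, adjusted p = 0.116, without library B).

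Cacna2d1 held 1393 to 1675 normalised counts in controls (median 1526), 1425 and 1441, 1420 and 1490, and 1347 and 1365 at BDNF 1, 6 and 10 h, and 1625 and 1711, 1604 and 1404, and 1943 and 1747 at KCl 1, 6 and 10 h. It rose at KCl 10 h (log2 fold change 0.27, SE 0.07, adjusted p = 0.00267), with both libraries above all controls. At KCl 6 h it did not pass with library B or without it (0.07, adjusted p = 0.509, without). It fell by 0.17 on the log2 scale at BDNF 10 h (adjusted p = 0.0612), a call lost without either BDNF 10 h library.

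The difference between the stimuli was tested directly at each time. At 1 h, 5 subunit genes were lower with BDNF than with KCl and 0 were higher (0 under an unadjusted p of 0.05, and 0 by edgeR and by DESeq2), where 42.8% of all genes differed in either direction. The 5 were Cacna1a (log2 fold change of BDNF over KCl -0.55), Cacna1g (-0.29), Cacna1i (-0.37), Cacna2d1 (-0.22) and Cacna2d3 (-0.36). The calls of Cacna1g, Cacna1i and Cacna2d1 were lost when 1 library was left out: Cacna1g without library B of KCl 1 h or A of BDNF 1 h, Cacna1i without library A of either group, and Cacna2d1 without library B of KCl 1 h or either BDNF 1 h library. The count was 2 without library A of BDNF 1 h and 3 without library B of KCl 1 h. At 6 h, 5 were higher and 1 was lower with BDNF, where 57.3% of all genes differed. Cacna1d stood out at 2.07 (SE 0.16, adjusted p = 1.91e-09), followed by Cacna1e (0.90, adjusted p = 1.34e-05), Cacna2d3 (0.88, adjusted p = 4.59e-07), Cacna1i (0.62, adjusted p = 3.10e-04) and Cacna1b (0.31, adjusted p = 0.0415), while Cacna1g was lower (-0.80, adjusted p = 4.83e-06). Without library B of KCl 6 h, Cacna1d stood at 1.82 (adjusted p = 1.63e-08), Cacna2d3 at 0.92, Cacna1e at 0.69 (adjusted p = 4.61e-04), Cacna1i at 0.50 (adjusted p = 0.00758) and Cacna1g at -0.94, all passing. In that fit Cacna1b did not pass (0.06) and Cacna1h passed as lower with BDNF (-0.47, adjusted p = 0.00299), where 50.2% of all genes differed. At 10 h, 2 were higher and 3 were lower with BDNF, where 45.0% of all genes differed. Cacna1d (1.24, adjusted p = 3.32e-06) and Cacna2d3 (0.75, adjusted p = 6.74e-06) were higher, and Cacna2d1 (-0.44, adjusted p = 2.83e-04), Cacna1g (-0.43, adjusted p = 0.0047) and Cacna1b (-0.28, adjusted p = 0.0745) were lower. The Cacna1b call was lost without library A of KCl 10 h or either BDNF 10 h library. Cacna1c never passed, with its 95% interval at 6 h running from -0.03 to 0.46.

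**Figure D3:**
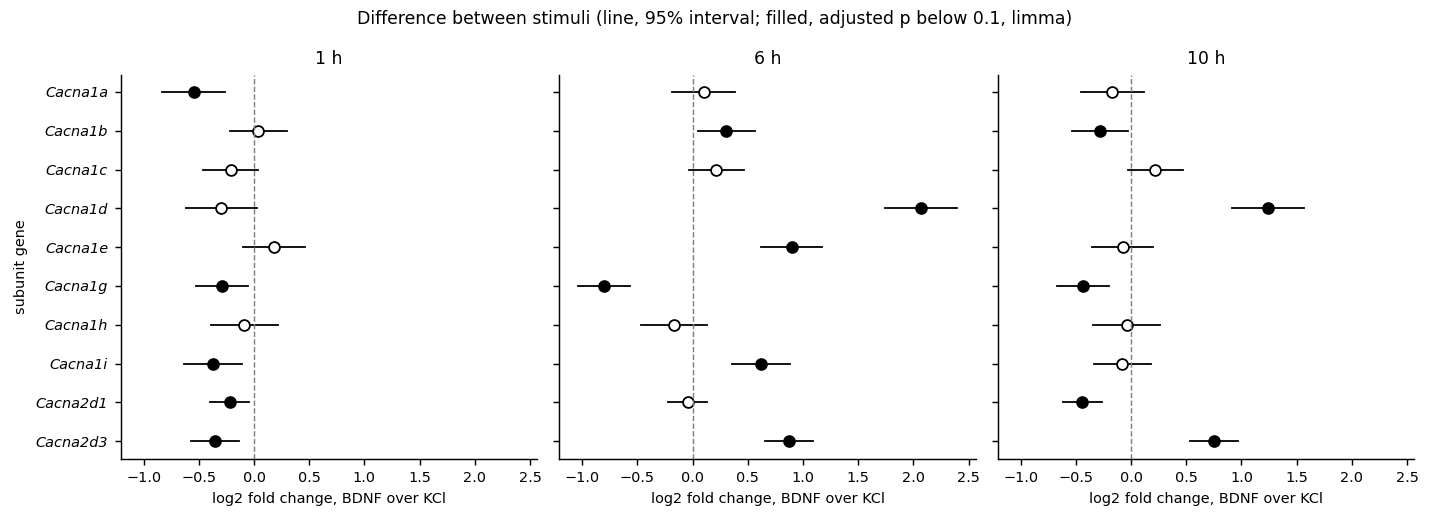
Log2 fold change of BDNF over KCl for each subunit gene at 1, 6 and 10 h, with lines for the 95% interval of limma and filled points where the adjusted p was below 0.1. Cacna1d lies at 2.07 at 6 h and 1.24 at 10 h, and Cacna1g is below 0 at all 3 times.

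Within a stimulus, the largest shift was between 1 and 6 h. From KCl 1 h to KCl 6 h all 10 subunit genes had a negative log2 fold change, from -0.15 for Cacna2d1 to -2.23 for Cacna1d, and 9 passed, where 59.6% of all genes passed in either direction and 28.7% as lower. Without library B, 7 passed as lower and 0 as higher, where 52.2% of all genes passed in either direction. From KCl 6 h to 10 h, 4 rose (Cacna1b, Cacna1d, Cacna1e and Cacna2d1) and 0 fell (0 under an unadjusted p of 0.05, and 0 by edgeR and by DESeq2), beside 22.5% of all genes in either direction. That count was 1 without library A of KCl 10 h, and without library B of KCl 6 h 3 rose and 2 fell. From BDNF 1 h to 6 h, Cacna1g (-1.38, adjusted p = 7.47e-09) and Cacna1h (-0.42, adjusted p = 0.0365) fell and Cacna2d3 (0.66, adjusted p = 5.16e-05) and Cacna1i (0.42, adjusted p = 0.0168) rose, beside 33.6% of all genes. Of these 4, Cacna1h and Cacna1i were lost when a library was left out. From BDNF 6 h to 10 h, 0 of 10 passed in limma, 2 had an unadjusted p under 0.05, edgeR gave 0 and DESeq2 gave 1, beside 0.216% of all genes.

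Over the 18 libraries, which share controls and depth, the genes whose log2 values followed a subunit most closely were searched among 11563 genes with a mean of at least 100 normalised counts. For Cacna1d they were Adam1a, Tln2 and Mapkap1, at Pearson r of 0.98, 0.98 and 0.97. For Cacna1g they were Ephb2 (0.97), Trim67 (0.97) and Kctd15 (0.96), and for Cacna2d3 they were Manf (0.95), Slc24a3 (0.94) and Slc39a11 (0.94). The closest genes of the other subunits reached lower values, with Ttc7b at 0.90 for Cacna1a, Dopey2 at 0.89 for Cacna1b, Hivep2 at 0.85 for Cacna1c, Capn2 at 0.91 for Cacna1e, Samd14 at 0.90 for Cacna1h, Tceanc2 at 0.89 for Cacna1i and Ift172 at 0.89 for Cacna2d1. Within the family, Cacna1g with Cacna1h (0.77) and Cacna1d with Cacna1e (0.75) were most alike, and Cacna2d3 with Cacna1g (-0.53) least. These correlations describe 18 libraries in 9 groups and carry no test.

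Of the 16 other channel subunit genes listed, 11 were tested, and Cacna1f, Cacna1s, Cacna2d4, Cacng1 and Cacng6 were too low. In the order BDNF 1, 6 and 10 h and KCl 1, 6 and 10 h, 2, 2, 2, 3, 5 and 4 of the 11 rose and 2, 5, 4, 3, 3 and 2 fell. As shares of the 11, the rises were 18.2% in each BDNF group and 27.3%, 45.5% and 36.4% with KCl, beside 21.3%, 22.1%, 21.1%, 26.5%, 33.4% and 29.0% of all genes. The falls were 18.2%, 45.5%, 36.4%, 27.3%, 27.3% and 18.2%, beside 19.0%, 21.1%, 19.5%, 28.2%, 33.1% and 28.2%. Without library B of KCl 6 h, 5 rose and 1 fell at that time. None changed by a full log2 unit against controls in a comparison that passed. The following 3 were picked after their values were seen. Cacnb1, a beta subunit, had 641 to 819 normalised counts in controls and rose to 1236 and 1297 at BDNF 1 h (log2 fold change 0.86) and to 1001 and 1171 at KCl 6 h (0.63, or 0.74 without library B). Cacnb3, another beta subunit, fell from 1902 to 2419 in controls to 1031 and 1207 at BDNF 6 h (-0.92), while at KCl 6 h it held 2316 and 2659. Cacng5, a member of the gamma family that acts mainly on AMPA receptors, fell at BDNF 6 h (-0.52) and rose at KCl 6 h (0.98, or 0.91 without library B), and the difference between the stimuli at 6 h was -1.50 (adjusted p = 2.07e-10).

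RGK GTPases bind beta subunits and inhibit calcium channels. Of 4 genes, Rem1 was too low to test, and the other 3 rose at BDNF 1 h and at each time of KCl. Of all genes, 21.3% rose at BDNF 1 h and 26.5%, 33.4% and 29.0% at KCl 1, 6 and 10 h. Rem2 had 78.8 to 147 normalised counts in controls, 694 and 738 at BDNF 1 h, and 578 and 656 at KCl 6 h, with log2 fold changes of 2.72 and 2.50 (2.41 at KCl 6 h without library B). By BDNF 10 h it was lower than in controls (-0.74, adjusted p = 0.0111). Rrad had 1.10 to 7.26 normalised counts in controls and 411 and 428 at BDNF 1 h, a fitted log2 fold change of 6.39 that depends on the pseudocount of 1. Its controls lay below the mean of 10 that the filter required, so Rrad was tested because of its stimulated libraries. Gem rose at KCl 1 h (1.33) and 6 h (1.40) from 29.7 to 50.5 normalised counts in controls. At BDNF 1 h, Gem was the least changed of the 3 (0.65), while no pore or alpha2delta gene listed here rose at that time.

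Of 16 genes for calcium stores and extrusion, 14 were tested (Atp2a1 and Atp2a3 were too low). At KCl 1 h, 8 of the 14 passed as higher (57.1%, beside 26.5% of all genes; median log2 fold change 0.15), and at KCl 6 h, 5 rose and 7 fell (35.7% and 50.0%, beside 33.4% and 33.1%; median -0.19). Without library B of KCl 6 h, 5 rose and 6 fell, with a median of 0.01. Those that changed by at least 1 log2 unit were Ryr3, a ryanodine receptor of internal stores, at BDNF 10 h (-1.15), the IP3 receptors Itpr1 (-1.01) and Itpr2 (-1.32) and the plasma membrane calcium pump Atp2b3 (-1.01) at KCl 6 h, and the sodium-calcium exchanger Slc8a1 at KCl 10 h (1.09). Without library B, the KCl 6 h values were -0.95 for Itpr1, -1.35 for Itpr2 and -0.68 for Atp2b3. The BDNF values for the 5 genes at 6 h were -0.45, -0.80, -0.32, 0.00 and 0.42 in that order.

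The subunit genes are long: 8 of the 10 span at least 100 kb, as do 13.4% of genes tested. Over all 2166 long genes tested, 38.6% were lower at BDNF 6 h, 38.1% at BDNF 10 h and 37.9% at KCl 6 h, against 18.5%, 16.7% and 32.4% of shorter genes, with medians of -0.14, -0.15 and -0.07. After 1 h of KCl, 19.7% of long genes were lower against 29.6% of shorter ones, and after 1 h of BDNF, 19.7% against 19.0%. The shares called higher were 11.7% of long genes against 22.9% of shorter ones at BDNF 1 h. At KCl 1 h they were 27.9% against 26.3%. Cacna1g, which fell most with BDNF, spans 65.8 kb, and Cacna2d3, which rose with BDNF, spans 817 kb, the longest of the 10. Cacna1e, which fell with KCl, spans 494 kb, and Cacna1i, which fell with both stimuli, spans 111 kb. The part of gene length in the subunit results was not tested. Cacna1d (452 kb) and Cacna2d3 lie on the same strand of chromosome 14, with 318 kb between them.

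On GRCm38 (mm10), the genes lie at chr8:84388440-84640246 (Cacna1a), chr2:24603887-24763152 (Cacna1b), chr6:118587240-119196418 (Cacna1c), chr14:30039939-30491455 (Cacna1d), chr1:154390731-154884501 (Cacna1e), chr11:94408391-94474198 (Cacna1g), chr17:25374285-25433783 (Cacna1h), chr15:80287238-80398279 (Cacna1i), chr5:15934691-16374511 (Cacna2d1) and chr14:28904943-29721864 (Cacna2d3).

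Chromatin was examined at the same 10 loci, taken as the gene span plus 10 kb on each side, in which 103 ATAC peaks lay and all were tested. Of these, 13 were promoter peaks (from 1000 bp before to 100 bp after an annotated transcript start of the gene) and 83 were intronic. A peak is called gained or closing where edgeR with LOESS offsets gave an adjusted p below 0.1 over all 56383 peaks tested. At BDNF 1 h, 23 peaks were gained and 1 closed, or 22.3% and 0.971%, beside 12.5% and 4.78% of all peaks. Gains numbered 14 at BDNF 6 h (8.88% of all peaks), 14 at BDNF 10 h (7.46%), 8 at KCl 1 h (5.29%), 10 at KCl 6 h (5.44%) and 14 at KCl 10 h (5.91%). Closing peaks numbered 2 at BDNF 6 h (1.75% of all peaks), 6 at BDNF 10 h (1.9%), 3 at KCl 1 h (3.05%), 1 at KCl 6 h (2.06%) and 0 at KCl 10 h (1.96%), where 1 had an unadjusted p under 0.05 and DESeq2 also gave 0. The shares over all peaks cover peaks of every kind, while 83 of the 103 subunit peaks were intronic. A share over intronic peaks alone is not given here, and an excess at these loci was not tested.

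Most gained peaks lay in introns, as did most of the peaks tested (83 of 103). Of 27 peaks gained at least once, 25 were intronic, 1 was exonic and 1 was a promoter peak. They were spread over 7 loci: 7 at Cacna2d1, 6 each at Cacna1c and Cacna1e, 4 at Cacna2d3, 2 at Cacna1a and 1 each at Cacna1b and Cacna1d. The 12 peaks at the T-type loci Cacna1g, Cacna1h and Cacna1i had log2 fold changes from -0.78 to 1.01 and adjusted p of 0.142 or above. There were 24 peaks gained with BDNF at some time and 17 with KCl, with 14 in both sets, which is 58.3% of the former and 82.4% of the latter. The same overlap over all peaks is not given here, so these shares do not mark these loci out. The difference between stimuli was not tested at peaks.

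**Figure D4:**
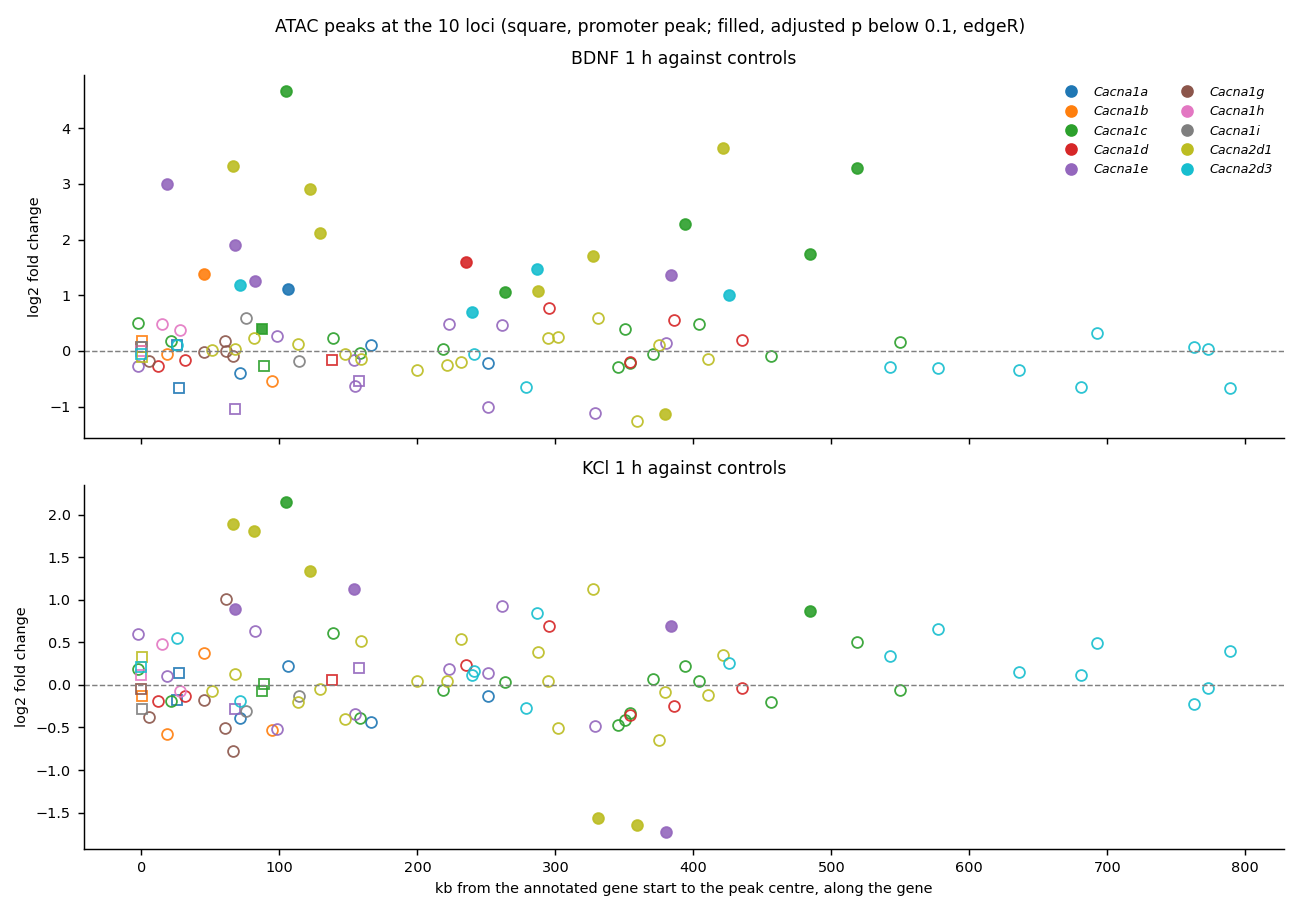
Log2 fold change of each of the 103 ATAC peaks at BDNF 1 h (top) and KCl 1 h (bottom) against controls, plotted by distance in kb from the annotated start of the gene; colours mark the gene, squares are promoter peaks, and filled symbols had an adjusted p below 0.1 in edgeR. The highest points at BDNF 1 h are intronic peaks of Cacna1c at 105 kb (4.67) and Cacna2d1 at 421 kb (3.65), while promoter peaks lie between -1.05 and 0.39 at BDNF 1 h and between -0.28 and 0.33 at KCl 1 h.

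The strongest gain was in an intron of Cacna1c, at chr6:119091184-119091508. Counted from the outermost annotated start, the Cacna1c promoter peaks lay at 87.6 and 88.7 kb and this gained peak at 105 kb. Reads scaled by LOESS were 1.2 to 3.89 in controls (median 2.5), 64.7 and 74.7 at BDNF 1 h, 52.0 and 37.4 after 6 h, and 30.4 and 29.8 after 10 h. KCl gave 22.4 and 3.9 after 1 h, 12.2 and 10.2 after 6 h, and 14.4 and 11.6 after 10 h. The log2 fold change was 4.67 at BDNF 1 h (SE 0.41, adjusted p = 5.80e-19), 4.01 at 6 h and 3.45 at 10 h, and 2.08 to 2.24 with KCl, all passing. Leaving out a library ended the KCl calls but not those of BDNF. The filter on low values took the mean over all libraries, and the controls of this peak lay below its limit of 10. The peak was thus tested because of its stimulated libraries, and the BDNF 1 h call was kept in a fit without the filter. At Cacna2d1, the peak at chr5:16000985-16001303, 66.5 kb into the gene, rose from 2.9 to 13.3 in controls to 91.4 and 76.2 at BDNF 1 h (3.32, SE 0.30, adjusted p = 1.24e-17) and to 34.2 and 46.9 at KCl 6 h (2.22, adjusted p = 1.23e-05). A second intronic peak of Cacna2d1, at chr5:16355835-16356228, held 75.6 and 68.3 at BDNF 1 h against 1.17 to 15.96 in controls (3.65, adjusted p = 1.49e-16), but 11.9 and 3.8 at KCl 1 h (0.35, adjusted p = 0.752). RNA of Cacna1c and Cacna2d1 differed from controls by 0.08 and -0.09 at BDNF 1 h.

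**Figure D5:**
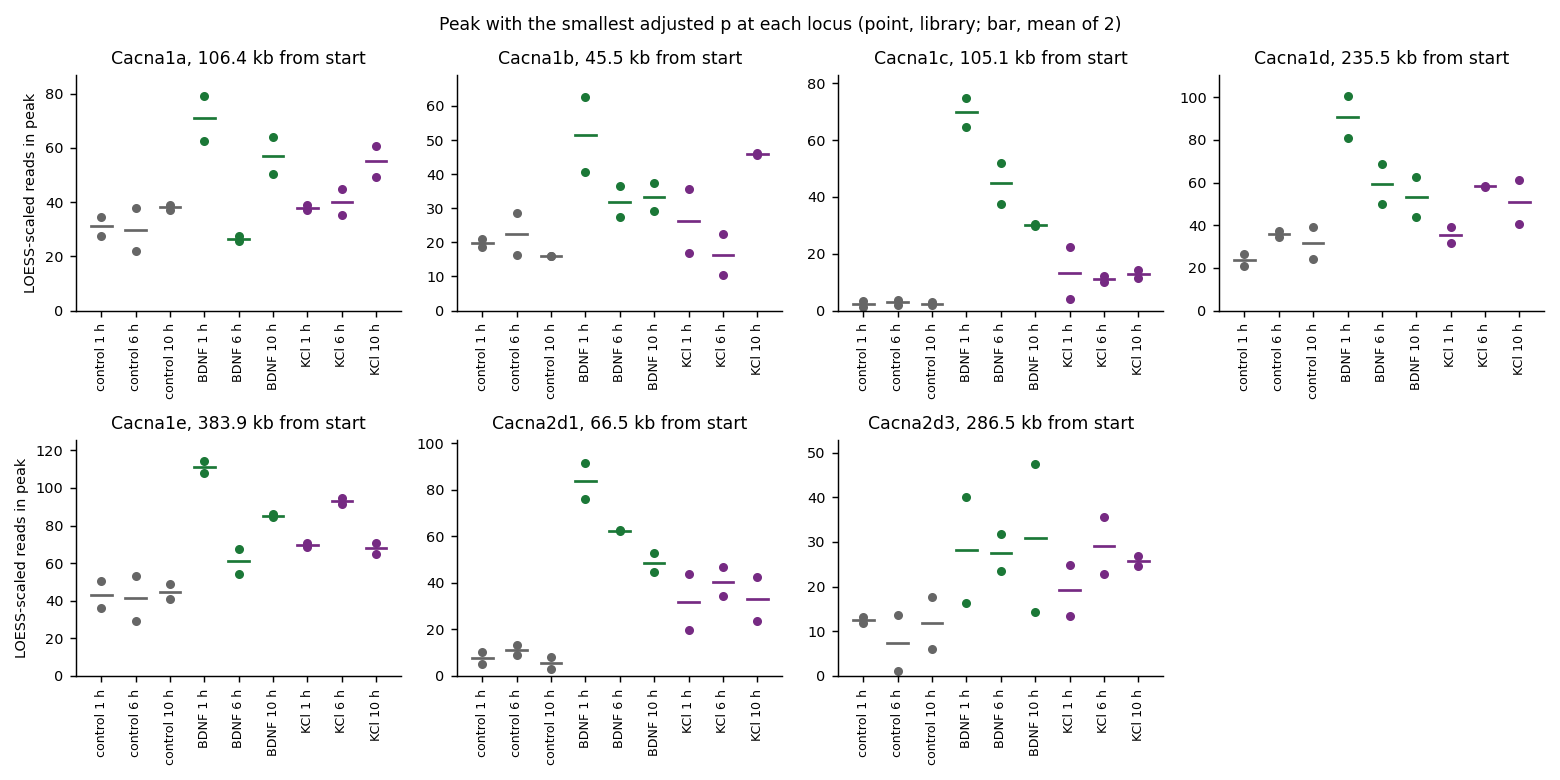
LOESS-scaled reads in each of 18 ATAC libraries at the peak with the smallest adjusted p of each locus that had a called peak; points are libraries and bars the mean of 2. At the Cacna1c and Cacna2d1 peaks both BDNF 1 h libraries (64.7 and 74.7, 91.4 and 76.2) lie far above the 6 controls, which do not exceed 3.89 and 13.3, and KCl lies between.

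Smaller gains were found elsewhere. The Cacna1d promoter peak lay 138 kb from the outermost annotated start, and a gained peak, chr14:30255780-30256175, lay at 235 kb. This gained peak held 20.9 to 39.1 in controls and 81.0 and 100.5 at BDNF 1 h (1.60, adjusted p = 2.64e-08). With KCl it held 39.4 and 31.8 at 1 h (0.23, adjusted p = 0.687) and 58.3 and 58.2 at 6 h (0.95, adjusted p = 0.0238), the time at which Cacna1d RNA was lowest. The KCl 6 h call was lost when a library was left out. The Cacna1e peak at chr1:154816239-154816672 was gained in all 6 groups, from 10.8 to 21.8 in controls to 45.2 and 72.6 at BDNF 1 h (1.91, adjusted p = 7.64e-08), and the other peaks gained in all 6 were 1 of Cacna1c and 2 of Cacna2d1. At Cacna2d3, the peak at chr14:29435154-29435643 had 1.04 to 17.6 in controls, 16.4 and 40.1 at BDNF 1 h, 31.8 and 23.5 after 6 h, and 14.4 and 47.6 after 10 h. KCl gave 22.8 and 35.6 after 6 h and 24.6 and 26.9 after 10 h. It passed at each BDNF time (1.47, 1.39 and 1.62), at KCl 6 h (1.40, adjusted p = 0.0450) and at KCl 10 h (1.31, adjusted p = 0.0452), and each call was lost when a library was left out. Cacna1a and Cacna1b had peaks gained at BDNF 1 h by 1.11 (adjusted p = 3.48e-04) and 1.38 (adjusted p = 2.49e-04).

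Closing peaks were fewer and held few reads. The 9 peaks lay at Cacna1a (1), Cacna1e (3), Cacna2d1 (3) and Cacna2d3 (2), with highest controls of 18.7 to 36.7 scaled reads. The largest fall with KCl was at an intronic Cacna1e peak, chr1:154504135-154504451, with 18.6 to 36.2 in controls, 8.61 and 7.32 at KCl 1 h (log2 fold change -1.73, adjusted p = 0.00787) and 6.05 and 2.54 at KCl 6 h (-2.35, adjusted p = 0.00247). The KCl 6 h call at that peak was the only one of the closing calls that was kept with any library left out (highest adjusted p 0.0979).

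Sequences of the gained peaks are shown because letters of the AP-1 site, the element bound by Fos and Jun dimers, recurred in them. The search covered the central 200 bp of each peak, on both strands, for AP-1 (TGANTCA), CRE (TGACGTCA), an EGR site (GCGNGGGCG) and the GC box (GGGCGG). The letters of the EGR site and the GC box can overlap, and so can the ends of AP-1 and CRE sites. AP-1 letters were in 17 of the 27 subunit peaks gained at least once (63.0%) and in 3 of the other 76 (3.95%). Over all 56383 peaks they were in 12.98%. Of the 23 subunit peaks gained at BDNF 1 h, 17 held them (73.9%), beside 59.7% of all peaks gained then. At BDNF 6 and 10 h the shares were 92.9% and 85.7%, beside 68.6% and 67.4%. At KCl 1 and 6 h they were 75.0% and 80.0%, beside 35.9% and 54.9%. The subunit shares rest on 8 to 23 peaks a group, and their difference from all gained peaks was not tested. CRE letters were in 0 of the 27 and in 0.708% of all peaks. The windows below are of the peak with the smallest adjusted p at each locus, with the other peaks gained in at least 5 of the 6 groups, read from GRCm38 on the plus strand with AP-1 letters in capitals. 9 of the 10 windows held them.

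Cacna1a, chr8:84494788-84494987: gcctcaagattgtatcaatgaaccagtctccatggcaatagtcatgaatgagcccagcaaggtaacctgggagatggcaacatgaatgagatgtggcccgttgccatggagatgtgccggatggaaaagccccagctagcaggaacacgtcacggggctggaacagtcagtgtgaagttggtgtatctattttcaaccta
Cacna1b, chr2:24717599-24717798: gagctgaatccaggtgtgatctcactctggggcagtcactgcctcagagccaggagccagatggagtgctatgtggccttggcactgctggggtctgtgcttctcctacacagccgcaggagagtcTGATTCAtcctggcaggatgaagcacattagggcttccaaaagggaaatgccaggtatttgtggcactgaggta
Cacna1c, chr6:119091247-119091446: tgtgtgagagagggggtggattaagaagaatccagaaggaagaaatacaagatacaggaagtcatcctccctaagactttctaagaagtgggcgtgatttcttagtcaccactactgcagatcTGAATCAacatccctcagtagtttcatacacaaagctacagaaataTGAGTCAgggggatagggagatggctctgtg
Cacna1d, chr14:30255878-30256077: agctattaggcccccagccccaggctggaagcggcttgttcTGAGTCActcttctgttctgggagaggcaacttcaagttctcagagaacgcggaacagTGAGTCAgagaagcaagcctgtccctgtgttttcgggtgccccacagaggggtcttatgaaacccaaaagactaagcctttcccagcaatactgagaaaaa
Cacna1e, chr1:154500544-154500743: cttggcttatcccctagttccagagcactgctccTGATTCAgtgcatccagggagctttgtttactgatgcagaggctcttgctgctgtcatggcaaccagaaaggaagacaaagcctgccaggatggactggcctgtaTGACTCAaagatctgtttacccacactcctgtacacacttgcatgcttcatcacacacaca
Cacna1e, chr1:154816356-154816555: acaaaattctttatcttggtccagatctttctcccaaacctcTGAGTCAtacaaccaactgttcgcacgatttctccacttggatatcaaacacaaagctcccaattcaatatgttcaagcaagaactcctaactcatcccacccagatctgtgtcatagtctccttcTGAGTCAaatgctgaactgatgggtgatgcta
Cacna2d1, chr5:16001045-16001244: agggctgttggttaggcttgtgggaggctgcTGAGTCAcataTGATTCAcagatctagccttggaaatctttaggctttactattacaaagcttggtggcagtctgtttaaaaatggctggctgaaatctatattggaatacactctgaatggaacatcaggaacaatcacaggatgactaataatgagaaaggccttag
Cacna2d1, chr5:16056863-16057062: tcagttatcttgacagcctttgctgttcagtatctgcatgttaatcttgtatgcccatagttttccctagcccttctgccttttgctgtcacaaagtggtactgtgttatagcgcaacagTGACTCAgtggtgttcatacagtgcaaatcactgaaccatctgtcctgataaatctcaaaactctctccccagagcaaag
Cacna2d1, chr5:16355932-16356131: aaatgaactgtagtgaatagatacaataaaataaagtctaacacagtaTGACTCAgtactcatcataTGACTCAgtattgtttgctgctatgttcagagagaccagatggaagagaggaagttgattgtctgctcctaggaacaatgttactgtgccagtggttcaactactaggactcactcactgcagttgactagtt
Cacna2d3, chr14:29435299-29435498: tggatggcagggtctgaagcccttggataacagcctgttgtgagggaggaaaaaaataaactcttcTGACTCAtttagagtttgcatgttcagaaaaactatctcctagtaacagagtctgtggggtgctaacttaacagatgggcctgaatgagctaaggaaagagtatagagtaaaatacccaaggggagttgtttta

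A match to these letters is a description of the window and not evidence of binding. The letters TGAGTCA or TGACTCA, the classical form of the site, occurred in the windows of Cacna1c, Cacna1d, Cacna1e, Cacna2d1 and Cacna2d3. The Cacna1d window held TGAGTCA 2.5 bases from the peak centre, the nearest of the 10. The Cacna1a window held none of the 4 motifs.

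Promoter peaks were tested in the same way. Over all peaks of any kind, 5.29% to 12.5% were gained and 1.75% to 4.78% closed, depending on the group. The share over all promoter peaks is not given here. Of 78 tests (13 promoter peaks in 6 groups), 3 passed: a Cacna1c promoter peak was gained at BDNF 1 h (90.3 to 134 in controls, 156 and 140 after, log2 fold change 0.39, adjusted p = 0.0852), and 1 promoter peak each of Cacna1a (-1.61) and Cacna1e (-1.69) was closing at BDNF 10 h, with highest controls of 28.1 and 28.9 scaled reads. All 3 calls were lost when a library was left out. The promoter peak of Cacna1d held 28.0 to 45.3 in controls, 30.5 and 42.0 at KCl 6 h (-0.14, adjusted p = 0.882) and 63.6 and 57.2 at KCl 10 h (0.67, adjusted p = 0.134). That of Cacna1g, at the start of the gene, had 43.8 to 68.0 in controls and 43.2 and 46.9 at BDNF 6 h (-0.33, adjusted p = 0.540), where the RNA fell 2.37-fold. The promoter peak of Cacna2d3 had 116 to 139 in controls and 116 and 130 at BDNF 6 h (-0.04, adjusted p = 0.936). RefSeq promoters (GRCm38.p6, 250 bases before to 50 after the start) were matched for 7 of the 10 genes, 10 promoters in all. The pair shown belongs to the L-type gene that fell and the alpha2delta gene that rose, both inside a promoter peak, written along the gene, with GC box letters of either strand in capitals.

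Cacna1d, chr14:30353437-30353736, minus strand: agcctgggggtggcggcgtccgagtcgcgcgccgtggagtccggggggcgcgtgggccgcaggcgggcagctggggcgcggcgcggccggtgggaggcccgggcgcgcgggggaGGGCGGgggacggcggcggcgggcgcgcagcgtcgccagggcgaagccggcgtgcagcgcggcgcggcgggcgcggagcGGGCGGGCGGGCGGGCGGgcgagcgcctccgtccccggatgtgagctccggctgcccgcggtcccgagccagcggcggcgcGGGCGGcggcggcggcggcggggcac
Cacna2d3, chr14:29721815-29722114, minus strand: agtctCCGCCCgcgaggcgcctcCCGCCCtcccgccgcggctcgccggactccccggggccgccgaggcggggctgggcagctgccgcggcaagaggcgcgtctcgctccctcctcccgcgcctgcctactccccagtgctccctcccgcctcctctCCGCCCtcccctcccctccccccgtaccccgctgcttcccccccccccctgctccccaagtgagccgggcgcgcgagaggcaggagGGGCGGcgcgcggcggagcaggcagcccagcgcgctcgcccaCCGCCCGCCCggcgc

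Both windows were rich in G and C, at 87.3% for Cacna1d and 81.3% for Cacna2d3 against a median of 52.7% over 32851 RefSeq promoters. Each held 6 GC box matches, and 35.7% of all promoters held at least 1. AP-1 and CRE letters, found in 7.81% and 1.79% of all promoters, were in none of the 10 subunit promoters. The other Cacna1d promoter, the Cacna1e promoter and 2 of the 3 Cacna1c promoters overlapped no peak.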

How the data were processed

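RNA-seq and ATAC-seq were measured in 18 libraries each. For RNA the authors trimmed reads, aligned them to mm10 and deposited a signal per gene, the read count divided by the DESeq2 size factor of the library; whole reads were recovered for all values within a tolerance of 0.01. For ATAC the authors deposited a table per consensus peak that is named as normalised but holds whole numbers with totals that differ between libraries, and it was treated as raw read counts. The authors' tables of differential genes and peaks hold their own comparisons and were not used. Gene names came from a deposited table for 24184 genes, and GENCODE M21 brought the named genes to 26203. Gene spans, strands, exon lengths and transcript starts came from GENCODE M21. Columns not mapped to a sample numbered 0.

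Genes with a mean of at least 10 were tested with limma 3.58.1 in R 4.3.3 on log2(value + 1), with trend and robust options and the 6 controls as 1 level. Fold changes are on that scale, which understates changes of low genes. Peaks with a mean of at least 10 reads over all 18 libraries were tested with edgeR 4.0.16 (quasi-likelihood) and LOESS offsets of span 0.3. Both used Benjamini-Hochberg adjustment over all features and a threshold of 0.1. edgeR and DESeq2 1.42.0 on recovered reads, other scalings, pseudocounts, filters, controls and left-out libraries were alternatives. The scripts were tested on simulated data. For RNA, the SE and intervals rest on 1 spread per gene, pooled over all 18 libraries and moderated across genes. They do not measure the spread within a single group. RNA libraries had a median of 11.6 M reads and ATAC libraries 3.55 M.

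All 10 subunits were named. Of the related lists, genes that passed with at least 1 log2 unit were named, up to 6 per list, with untested genes. Named peaks were promoter peaks and the called peak of smallest adjusted p at each locus, and others named were chosen after their values were seen. The members and lists were chosen with earlier results of these data known. Promoters were taken from RefSeq (GRCm38.p6). The letters A and B name columns only.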

Additional observations from a re-analysis of the deposited data

Results flagged for a closer look

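In 30 groups of 6 control libraries (10 subunit genes and 20 peaks), 1 held a library far from the rest, where chance gives about 1 in 20: at the Cacna1a promoter peak 27.2 kb from the start, the gap of the extreme control to its neighbour was 0.766 of the whole range of the group.

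The remaining results are directions that differed between stimuli or times. Cacna1g rose at KCl 1 h and fell at KCl 6 h against controls, and the difference between these times was -0.87 on the log2 scale. Cacna2d3 rose at KCl 1 h and passed as lower at KCl 6 h, a difference of -0.57, and it rose with BDNF at 6 h where it passed as lower with KCl, a difference of 0.88. Its KCl 6 h call against controls was lost without either KCl 6 h library, while both differences held. Cacna2d1 passed as lower with BDNF and rose with KCl at 10 h, a difference of -0.44, and the BDNF call alone was lost without either BDNF 10 h library.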

How the results depend on the processing

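Of the single-gene values recomputed under the alternatives, 1624 kept their direction and side of the threshold, 78 lost and 27 gained a call, and 1 reversed: Cacna1h at KCl 6 h, 0.23 without library B of KCl 6 h (-0.37 and called without library A). Of the peak values, 1475 kept theirs, 80 lost and 5 gained a call. At an adjusted p of 0.01, subunit genes called numbered 3 at KCl 1 h against controls, 2 for BDNF against KCl at 1 h and 2 from BDNF 1 to 6 h, and peaks numbered 10 and 9 at BDNF 6 and 10 h and 3, 5 and 7 at KCl 1, 6 and 10 h. With controls of the same time only, 3 genes passed at KCl 1 h, and 8, 5 and 9 peaks at BDNF 10 h, KCl 1 h and KCl 10 h. TMM scaling gave 20 peaks at KCl 6 h, and DESeq2 gave 1 gene from BDNF 6 to 10 h. The causes were not tested.

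With 1 library left out, genes called against controls ran from 1 to 1, 2 to 3 and 3 to 5 at BDNF 1, 6 and 10 h, and from 3 to 7, 5 to 6 and 4 to 6 at KCl 1, 6 and 10 h. Between stimuli they ran from 2 to 4, 5 to 7 and 4 to 6 at 1, 6 and 10 h. Between times they ran from 7 to 10 (KCl 1 to 6 h), 1 to 5 (KCl 6 to 10 h), 2 to 3 (BDNF 1 to 6 h) and 0 to 0 (BDNF 6 to 10 h). Peaks called ran from 18 to 26, 10 to 15 and 12 to 20 with BDNF and from 2 to 11, 6 to 13 and 5 to 15 with KCl. The lowest counts came without library A of KCl 1 h (3 genes, 2 peaks), KCl 10 h (1 gene from 6 to 10 h, 5 peaks), KCl 6 h (6 peaks), BDNF 1 h (2 genes for BDNF against KCl, 2 from 1 to 6 h) and BDNF 6 h (10 peaks), and without library B of BDNF 10 h (12 peaks) and BDNF 6 h (2 genes from 1 to 6 h). Without library B of KCl 1 h, 3 genes differed between stimuli and 3 peaks passed, and without that of KCl 10 h 8 peaks did.

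RNA libraries share only a letter: deviations of same-letter libraries correlated from -0.31 to 0.42 (median 0.065) over 36 pairs of groups. A fit with the letter as a replicate block left 128 of 130 gene results on their side of the threshold and called 2 more. At 2 libraries a group and 1.24 M ATAC reads in the shallowest library, changes at low peaks may not be detectable.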
